A study of Mus musculus with 6 samples.

Results

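The 7 genes described here are established markers of injured and repairing kidney tubule: Havcr1, Lcn2, Spp1, Sox9, Clu, Vcam1 and Gdf15. They were chosen by name, with earlier results of these data known. All 7 were found among the 24035 rows with a gene symbol in a table of RPKM (reads per kilobase of gene length scaled also to the counted reads of the library). The RNA came from glomeruli of FVB/N mice, pulled out of digested kidneys with a magnet after perfusion with iron oxide. The 3 control libraries carry the genotype Klf4 fl/fl, floxed alleles with no recombinase. The 3 knockout libraries carry Podocin-Cre Klf4 fl/fl, in which Cre is driven by the podocin promoter, active in podocytes, so that Klf4, a zinc-finger transcription factor, is deleted there. Both groups share the floxed alleles and the strain, no library has Cre alone, and the labels give neither the age of the mice nor whether each library is a separate animal. The p-values thus reflect variation among these 6 libraries, which may be partly technical.

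When a proximal tubule cell is damaged it lowers its transport genes, takes on features of an immature epithelium, and either divides and recovers its function or stays in a persistent inflammatory state. Havcr1 and Sox9 are switched on early in that response, Lcn2, Spp1 and Clu are released into urine and have been used as injury markers, and Vcam1 marks tubule cells whose repair has failed. Several of these genes are also made elsewhere: Vcam1 in the parietal epithelium of Bowman's capsule and in endothelium, Spp1 and Clu in later tubule segments, Spp1 in macrophages and Lcn2 in neutrophils.

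The counted reads per library ranged from 38936993 to 58272424. Klf4, the targeted gene, read 21.5, 44.3 and 49.8 RPKM across controls 1 to 3 and 29.4, 40.3 and 41.4 RPKM across knockouts 1 to 3. The groups overlapped, and since other glomerular cells keep the gene this value does not check the labels. Podocyte markers were present in every library, with a summed level over 16 genes of 3293 to 6201 RPKM in controls. In knockouts it was 985 to 2297 RPKM, lowest in replicate 2. By the limma test described below, 0 of the 16 were higher and 10 lower (median log2 change -1.75), where 3.48% of all tested genes were lower. The preparations also held tubule RNA: 19 proximal tubule markers summed to 5344 to 13972 RPKM in controls and 5348 to 13166 RPKM in knockouts. In such bulk RNA, more cells of a type and more RNA per cell cannot be told apart.

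All 7 genes were higher in knockout glomeruli by limma on log2(RPKM + 0.5), where 9.98% of the 13912 tested genes were called higher and 3.48% lower at a Benjamini-Hochberg adjusted p under 0.05. Every knockout library stood above every control library for all 7, a separation found for 23.7% of tested genes. Havcr1 and Sox9 passed the filter of a mean of 0.5 RPKM through the knockout libraries alone, so they had to differ to be tested; of the 5 whose control mean also reached it, 5 were called higher. The sizes were unequal, from a ratio of mean RPKM of 3.54 for Vcam1 to 455 for Havcr1. Together the 7 genes took 0.0235% to 0.0435% of counted reads in controls and 0.276% to 0.786% in knockouts, and in each knockout Spp1 alone made up 0.171% to 0.541%.

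**Figure D1:**
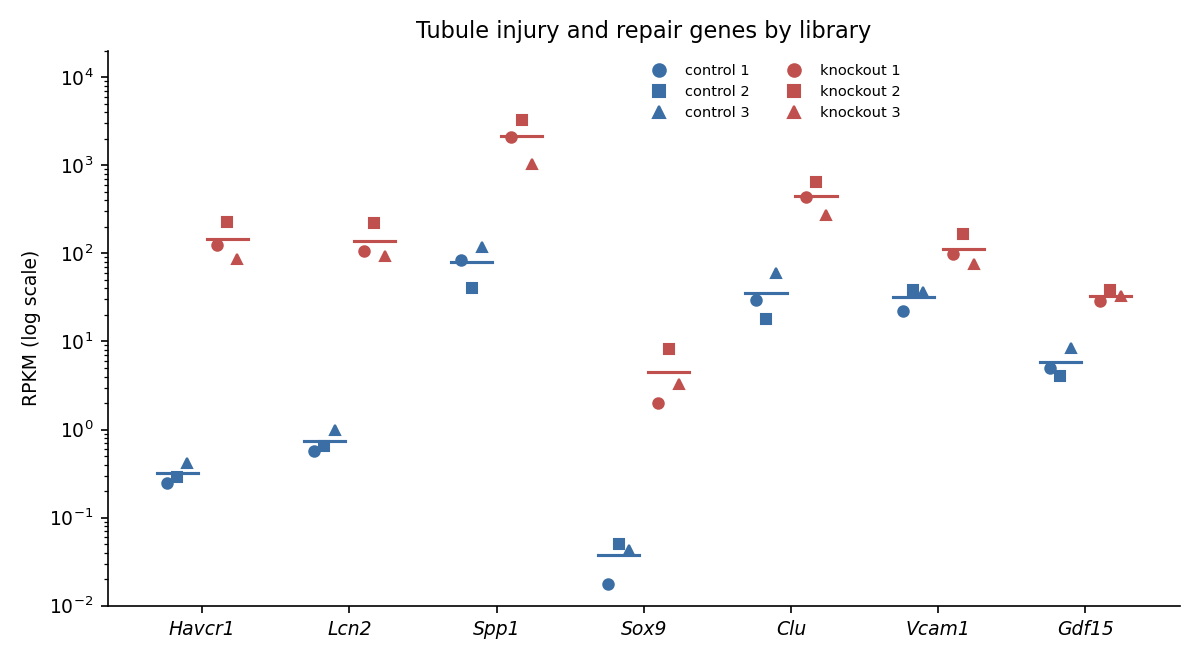
RPKM of the 7 genes in each library on a log axis, with controls in blue, knockouts in red, 1 symbol shape per replicate number and a bar at each group mean (n = 3 libraries per group). In every gene the knockout points lie above the control points, and the gap is narrowest for Vcam1, whose lowest knockout value is 2.00 times its highest control value.

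Havcr1 encodes KIM-1, a phosphatidylserine receptor with which injured tubule cells take up dying neighbours. The gene (GRCm38 chromosome 11, 46735080 to 46779578, plus strand) stood at 0.246, 0.290 and 0.416 RPKM across controls 1 to 3, which is 21, 32 and 34 reads. It stood at 124, 225 and 85.4 RPKM across knockouts 1 to 3. Controls were low and all knockouts high, with the lowest knockout 205 times the highest control. Its log2 change, the knockout mean minus the control mean, was 7.36 (95% interval 6.61 to 8.11, limma adjusted p = 2.36e-04), the highest of all tested genes.

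Lcn2 encodes NGAL, a secreted protein that binds iron-loaded siderophores. The gene (chromosome 2, 32384633 to 32388252, minus strand) had 0.577, 0.647 and 0.994 RPKM across controls 1 to 3 and 106, 219 and 94.6 RPKM across knockouts 1 to 3. As for Havcr1, controls were low throughout and replicate 2 was the highest knockout. Its log2 change of 6.73 (SE 0.31, limma adjusted p = 2.57e-04) was second among tested genes. Neutrophils store NGAL, so their markers were read in the same libraries: 12 of 13 markers were in the table, 6 passed the filter, 0 were higher and 1, Ltf (lactoferrin), was lower. Their summed level was 29.6 to 54.4 RPKM in controls and 5.75 to 26.2 RPKM in knockouts. The granule genes Mpo and Elane, below the filter like Ngp, Camp, Cxcr2 and Mmp8, had means of at most 0.027 RPKM in either group. The part of neutrophils in the Lcn2 level was not tested.

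Spp1 encodes osteopontin, a secreted phosphoprotein that binds integrins and CD44. The gene (chromosome 5, 104435118 to 104441050, plus strand) stood at 83.7, 40.9 and 117 RPKM across controls 1 to 3, already well expressed. It stood at 2089, 3261 and 1030 RPKM across knockouts 1 to 3, where its mean ranked 4 among all genes, against 747 in controls. The ratio of means was 26.4 and the log2 change 4.69 (SE 0.51, limma adjusted p = 3.10e-03). The control values had a coefficient of variation of 47.5%, with replicate 2 low and replicate 3 high. GENCODE places the gene model Gm42793 on the same strand over Spp1, and its reads could not be told apart.

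Clu encodes clusterin, an extracellular chaperone. The gene (chromosome 14, 65968483 to 65981547, plus strand) had 29.8, 17.8 and 59.3 RPKM across controls 1 to 3 and 435, 641 and 270 RPKM across knockouts 1 to 3. The lowest knockout was 4.55 times the highest control. The mean rose 12.6-fold, with a log2 change of 3.72 (SE 0.46, limma adjusted p = 4.60e-03).

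Gdf15 encodes a stress-induced hormone of the TGF-beta superfamily. The gene (chromosome 8, 70629393 to 70632456, minus strand) had 5.02, 4.00 and 8.34 RPKM across controls 1 to 3 and 28.8, 38.3 and 32.5 RPKM across knockouts 1 to 3. It was the steadiest of the 7 in knockouts, with a coefficient of variation of 14.4% against 40.8% to 72.3% for the other genes. Its mean rose 5.74-fold, with a log2 change of 2.47 (SE 0.25, limma adjusted p = 2.59e-03).

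Sox9 encodes a transcription factor that surviving tubule cells turn on as they repair. The gene (chromosome 11, 112782224 to 112787760, plus strand) was nearly silent in controls, with 3, 11 and 7 reads in replicates 1 to 3, or 0.0178, 0.0505 and 0.0434 RPKM. Knockout replicates 1 to 3 had 374, 1377 and 799 reads, or 1.99, 8.15 and 3.31 RPKM. It was thus the lowest of the 7 in both groups, although its ratio of means was 120, a figure that rests on 21 control reads in all. The log2 change was 3.02 (SE 0.42, limma adjusted p = 6.35e-03). Because the added 0.5 RPKM is far above the control level, this estimate was 4.83 with a pseudocount of 0.1, 2.24 with a pseudocount of 1 and 6.62 with voom on recovered reads.

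Vcam1 encodes an adhesion molecule that holds leukocytes through integrin alpha-4 beta-1. The gene (chromosome 3, 116109949 to 116129688, minus strand) had 22.1, 37.9 and 36.1 RPKM across controls 1 to 3 and 99.6, 165 and 75.8 RPKM across knockouts 1 to 3. It had the smallest rise of the 7, at 1.77 on the log2 scale (SE 0.32, limma adjusted p = 0.0137). The gene model Gm43109 overlaps it on the other strand.

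**Figure D2:**
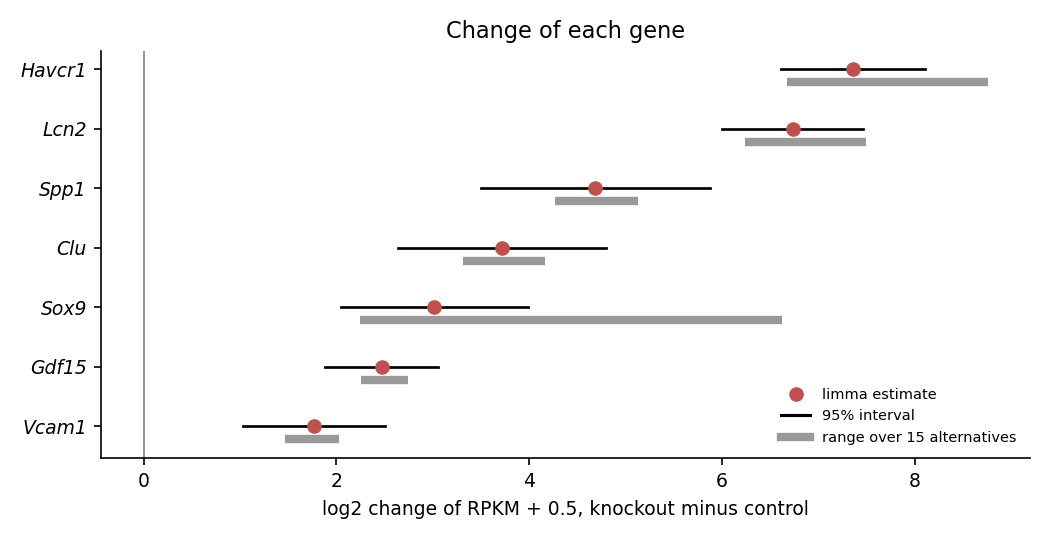
Log2 change of RPKM + 0.5, knockout minus control, for each gene, with the limma estimate as a red point, its 95% interval as a black line and the range over 15 alternative analyses as a grey bar. All intervals and ranges lie above 0, and the grey bar of Sox9, from 2.24 to 6.62, is the widest.

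The order of the 7 levels differed between the groups. In controls, by RPKM, Spp1 came first at 80.6 ± 38.3 (SD, n = 3), then Clu at 35.6 ± 21.3 and Vcam1 at 32.0 ± 8.62. These neighbours overlapped in range, though Spp1 exceeded Clu within each of the 3 libraries. Gdf15 at 5.79 ± 2.27, Lcn2 at 0.739 ± 0.223, Havcr1 at 0.318 ± 0.0882 and Sox9 at 0.0372 ± 0.0172 followed with no overlap between neighbours. In knockouts Spp1 at 2126 ± 1116 and Clu at 449 ± 186 stayed first and second. Havcr1 at 145 ± 71.8, Lcn2 at 140 ± 69.0 and Vcam1 at 114 ± 46.3 overlapped in range, though Lcn2 exceeded Vcam1 within each of the 3 libraries. Gdf15 at 33.2 ± 4.77 and Sox9 at 4.48 ± 3.24 came last.

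Within the knockout group the 7 genes shared their highest library. Knockout replicate 2 was highest for 7 of 7 genes, while it was highest for 34.5% of all tested genes and for 69.9% of the 1389 genes called higher. Replicate 3 was lowest for 5 (Havcr1, Lcn2, Spp1, Clu and Vcam1) and replicate 1 for 2 (Sox9 and Gdf15). In controls replicate 3 was highest for 5 genes and replicate 2 for Sox9 and Vcam1. The median SD of the log2 values of the 7 genes was 0.66 in knockouts, against 0.36 for the genes called higher and 0.19 for all tested genes. In controls it was also larger, at 0.42 against 0.21 for the genes called higher and 0.21 for all tested genes. Without knockout replicate 2 all 7 stayed above the threshold, from a log2 change of 1.46 for Vcam1 to 6.99 for Havcr1. The 6 libraries fall into separate groups of 3, so no correlation across libraries is given.

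**Figure D3:**
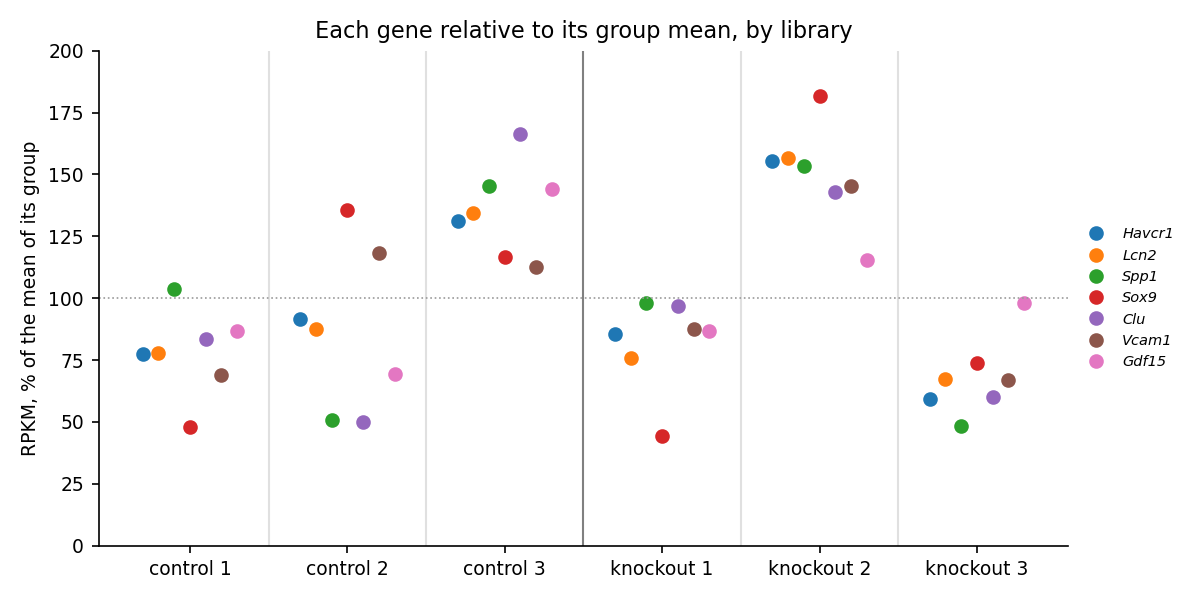
RPKM of each gene as a percentage of its own group mean, by library, with 1 colour per gene; the dotted line marks 100%. The 7 points of knockout replicate 2 all lie above the line, with Sox9 at 182% and Gdf15 at 115%, and those of control replicate 2 are split, with Sox9 at 136% and Spp1 at 50.7%.

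Some ratios between the genes varied less across knockouts than the genes themselves. Havcr1 was 1.17, 1.02 and 0.903 times Lcn2 across knockouts 1 to 3, a coefficient of variation of 12.7%, while each gene alone varied by 49.7% and 49.2%. Across controls 1 to 3 it was 0.427, 0.449 and 0.419 times Lcn2, ratios that rest on 21, 32 and 34 reads of Havcr1 and 20, 29 and 33 of Lcn2. Havcr1 to Vcam1 was the steadiest ratio in knockouts, at 9.34%, followed by Havcr1 to Clu at 10.4% and Clu to Vcam1 at 10.4%. Of the 21 pairs, 11 had a ratio steadier than either gene in knockouts and 9 in controls. Ratios with Sox9 varied by 40.7% to 68.6% in knockouts.

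The control order of Spp1 and Clu was also that of tubule RNA. It was not particular to them, since Gdf15 had the same control order. Nor was it particular to tubule RNA. The macrophage and dendritic cell sum, at 74.5, 71.6 and 75.0 RPKM across controls 1 to 3, had that order within a narrow range. The 16 markers of the loop of Henle, distal tubule and collecting duct summed to 967, 496 and 1386 RPKM across controls 1 to 3 and to 2626, 2907 and 1105 RPKM across knockouts 1 to 3. Expressed as a percentage of that sum, Spp1 was 8.66%, 8.24% and 8.46% in controls, nearly constant while its level varied, and 79.5%, 112% and 93.2% in knockouts. Clu was 3.08%, 3.59% and 4.28% in controls and 16.6%, 22.1% and 24.4% in knockouts. Relative to these markers the mean of Spp1 was thus 11.2 times and that of Clu 5.75 times higher in knockouts, with no overlap for either gene. Relative to the macrophage and dendritic cell sum described further on, the same means were 2.40 times higher for Spp1 and 1.16 times for Clu, and both genes overlapped between the groups. Of the 16 markers 1 was higher (6.25%) and 0 lower (median log2 change 1.04), and of the 19 proximal tubule markers 2 were higher (10.5%) and 0 lower (median log2 change -0.0073), shares near the 9.98% of all tested genes. These ratios were set up after the values were seen.

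**Figure D4:**
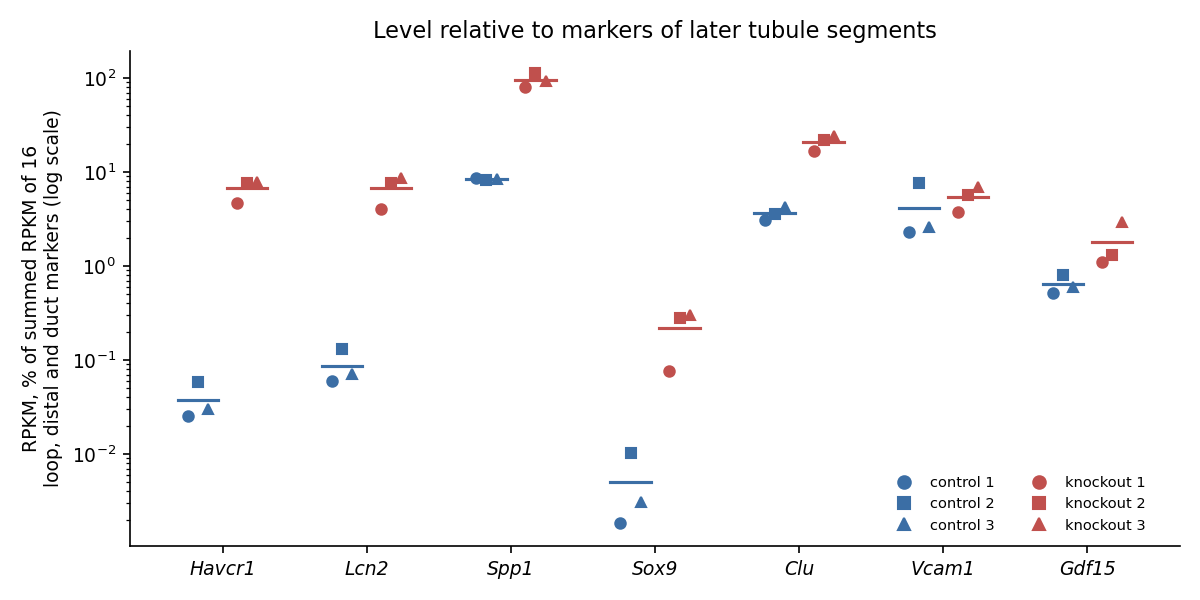
RPKM of each gene as a percentage of the summed RPKM of 16 loop, distal tubule and collecting duct markers in the same library, on a log axis, with symbols as in the plot of levels by library. Spp1 lies between 8.24% and 8.66% in the 3 controls and between 79.5% and 112% in the knockouts, whereas the groups overlap for Vcam1.

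Vcam1 was set against markers of other cells that make it. Parietal epithelial markers, 12 genes that do not include it, summed to 156, 195 and 182 RPKM across controls 1 to 3 and to 393, 638 and 405 RPKM across knockouts 1 to 3. Of the 12, 8 were higher (66.7%, against 9.98% of all tested genes) and 0 lower (median log2 change 2.20). Krt19 and Lix1 passed the filter through the knockouts alone, and of the other 10 markers 7 were higher. Krt8, Krt18, Krt19 and Pax2 also stand among the further injury genes described below, and Cd44 among the binding partners. The parietal sum thus also holds injury genes. As a percentage of this sum Vcam1 was 14.2%, 19.4% and 19.8% in controls and 25.3%, 25.9% and 18.7% in knockouts, so the groups overlapped. It was also 2.29% to 7.64% of the loop, distal and duct sum in controls and 3.79% to 6.86% in knockouts. Endothelial markers, 12 genes, had 0 higher and 0 lower, with a summed level of 2494 to 3603 RPKM in controls and 1649 to 2594 RPKM in knockouts. Relative to the endothelial sum the mean of Vcam1 was 5.70 times higher in knockouts, with the lowest knockout 2.52 times the highest control. Relative to the proximal tubule sum the mean of Vcam1 was 3.70 times higher, with the lowest knockout 1.07 times the highest control. The groups thus overlapped for the parietal and the loop, distal and duct sums but not for these. Mesangial markers, of which 11 of 12 were tested, had 2 higher (18.2%) and 4 lower, against 9.98% and 3.48% of all tested genes. They summed to 1182 to 1675 RPKM in controls and 878 to 1228 RPKM in knockouts.

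Macrophage and dendritic cell markers, 13 of 14 in the table, had 12 higher (92.3%, against 9.98% of all tested genes) and 0 lower (median log2 change 2.27). Their sum was 71.6 to 75.0 RPKM in controls and 549 to 1244 RPKM in knockouts, highest in replicate 2. Of the 13, Itgax, Cx3cr1 and Fcgr1 passed the filter through the knockouts alone, and of the other 10 markers 9 were higher. Relative to this sum the mean was 40.4 times higher in knockouts for Havcr1, 16.6 times for Lcn2 and 9.62 times for Sox9, with no overlap. For Gdf15 and Vcam1 it was 0.54 and 0.32 times the control mean, lower in every knockout than in every control. Relative to the parietal sum Sox9 was 42.6 times higher; both figures for Sox9 rest on 3, 11 and 7 control reads. Over the 56 pairs of a gene with a marker list, 5 shared the order of libraries in both groups. These were Spp1 and Clu with the loop, distal and duct sum, Sox9 with the parietal and the neutrophil sums, and Gdf15 with the macrophage and dendritic cell sum. With 3 libraries per group an order can be shared by chance, and no such count was made for other genes. No marker of these lists was at 0 in all libraries, and the part of these cells in the rise of the 7 genes was not tested.

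Further genes of tubule injury and repair, listed with earlier results of these data known, moved mostly the same way. Their counts are thus no independent support for the 7. Of 36 such genes 35 were tested, 24 were higher (68.6%, against 9.98% of all tested genes), 2 were lower and 9 missed the threshold. Of all tested genes 3.48% were lower. Of the 35, 4 (Ccl2, Krt19, Krt20 and Cdh6) passed the filter through the knockout libraries alone and had to differ to be tested; of the other 31, 20 were higher and 2 lower. The median of their log2 changes was 1.55, against 0.097 over all tested genes. Ccl2, a monocyte chemoattractant released by tubule cells that fail to repair, had 0.158 ± 0.116 RPKM in controls and 65.7 ± 35.6 RPKM in knockouts (log2 change 6.51, SE 0.40, limma adjusted p = 9.70e-04). Lgals3, which encodes galectin-3, rose from 6.94 ± 3.68 to 113 ± 37.6 RPKM. The keratin gene Krt20, an injury-induced keratin of tubule cells, was counted at 1, 0 and 3 reads across controls 1 to 3 and 396, 750 and 311 across knockouts 1 to 3.

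Krt19, a simple-epithelium keratin, rose from 0.174 ± 0.120 to 8.89 ± 7.02 RPKM and Cdh6, a cadherin of the developing proximal tubule, from 0.292 ± 0.243 to 6.85 ± 3.49 RPKM. The transcription factor gene Myc rose 6.34-fold, the protease inhibitor Timp1 20.4-fold and Cp, which encodes ceruloplasmin, 3.19-fold. The 2 lower genes, named after their values were seen, were Sema5a, a semaphorin, from 57.3 ± 12.9 to 22.9 ± 5.33 RPKM, and Bmp7, an epithelial growth factor also made by podocytes, from 33.8 ± 1.77 to 17.3 ± 4.83 RPKM. Among those that did not pass, also named afterwards, were Sox4 (log2 change 1.02, limma adjusted p = 0.0592), Dcdc2a (0.41, adjusted p = 0.421) and Vim (0.60, adjusted p = 0.212). Without knockout replicate 2 the number higher was 16. Of the 36 genes, 4 (Krt8, Krt18, Krt19 and Pax2) also stand on the parietal list.

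**Figure D5:**
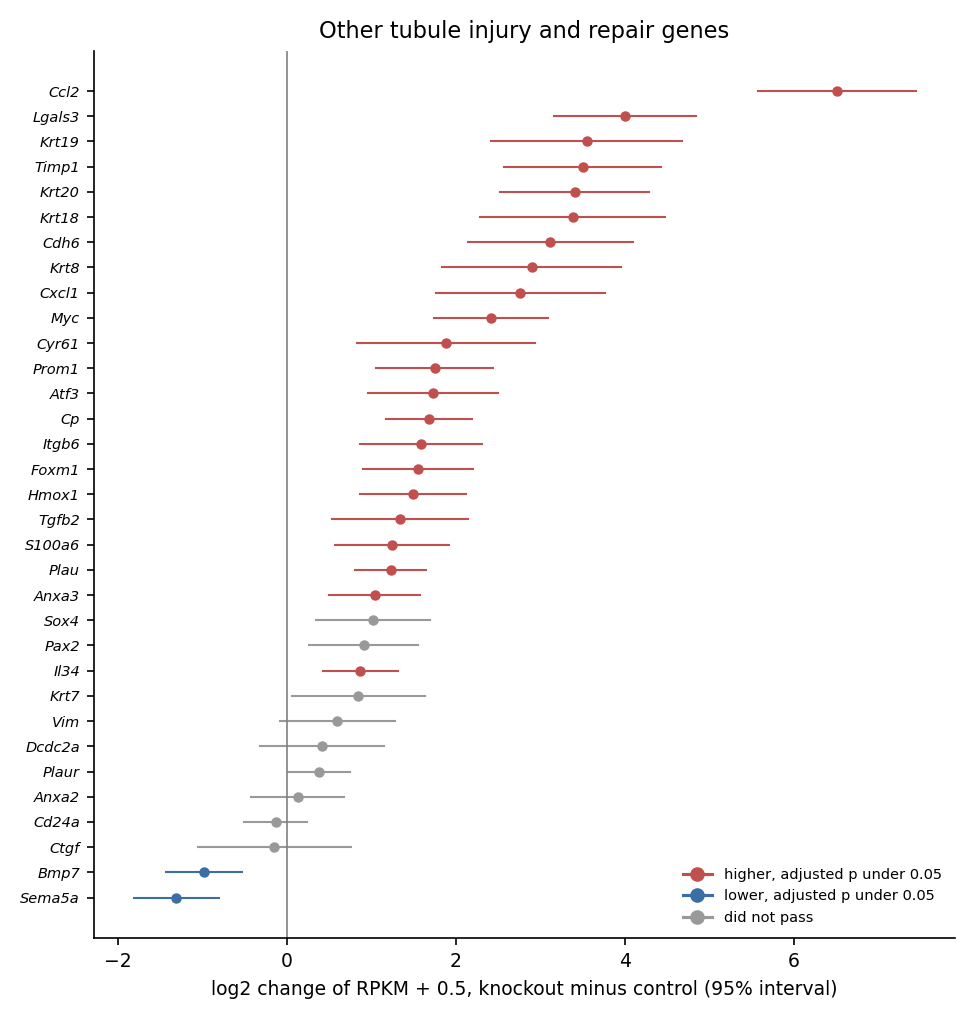
Log2 change of RPKM + 0.5, knockout minus control, with its 95% interval for 33 of the 35 tested further genes of tubule injury and repair, in red where higher, blue where lower and grey where the gene did not pass. The 22 red genes shown range from Il34 at 0.87 to Ccl2 at 6.51.

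Of 18 genes grouped as binding partners of the 7 proteins, 15 were tested. Of these, 3 were higher (20%, against 9.98% of all tested genes), 1 was lower and 11 missed the threshold. The median log2 change of the 15 was 0.099. Cd44, a receptor of osteopontin and hyaluronan that also stands on the parietal list, rose from 0.509 ± 0.266 to 20.5 ± 10.8 RPKM (4.29 on the log2 scale, SE 0.36, limma adjusted p = 2.06e-03). Egfr, a growth factor receptor active in tubule repair that is grouped here without a named partner among the 7, rose from 2.53 ± 0.365 to 7.57 ± 1.62 RPKM (1.40, SE 0.19, adjusted p = 5.82e-03). Itgav, the alpha-v integrin chain, passed narrowly (0.55, SE 0.15, adjusted p = 0.0486) and lost the call in all alternatives except the 2 other pseudocounts. Itgb5, its beta-5 partner, fell from 221 ± 51.2 to 74.0 ± 18.2 RPKM (-1.57 on the log2 scale, SE 0.24, adjusted p = 8.46e-03).

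The remaining osteopontin and VCAM-1 integrins did not pass. Itga5, Itgb3 and Itga9 had log2 changes of 0.72, 0.99 and 0.31, and Itgb1, Itga4, Itga8 and Itgb7 had -0.13, -0.47, -0.72 and 0.099. The NGAL receptors Slc22a17 and Lrp2 (megalin) had -0.30 and -0.051, with limma adjusted p of 0.243 and 0.931. Vldlr, a lipoprotein receptor, had 0.70. Of the GDF15 receptor, Gfral was listed at 0 in every library, and its co-receptor Ret had 12.8 ± 4.46 RPKM in controls and 11.6 ± 2.53 RPKM in knockouts. Timd4, a partner of KIM-1, had at most 4 reads per library.

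For each of the 7, the tested genes nearest in pattern were found, up to 3 each, by the root mean square difference of log2(RPKM + 0.5) over the 6 libraries, each gene centred on its own mean. Lcn2 was nearest to Havcr1 (0.34), followed by Fgg, a fibrinogen chain (0.54), and Sprr1a, a cornified envelope protein (0.64). Nearest to Lcn2 were Fgg (0.29), Havcr1 (0.34) and Ccl2 (0.47). Spp1 lay nearest to the fibrinogen chain Fga (0.26), the ubiquitin-like gene Ubd (0.30) and the amine oxidase gene Aoc1 (0.40), and Clu to Cldn4, a claudin (0.22), the keratin Krt18 (0.26) and Lgals3 (0.33). Sox9 lay nearest to the metalloproteinase gene Mmp12 (0.098), the chemokine gene Ccl20 (0.11) and Gxylt2 (0.22). Vcam1 lay nearest to Arhgdig (0.16), the chloride transporter gene Clcn5 (0.17) and 5730559C18Rik (0.17), and Gdf15 to Tmem171 (0.23) and the chemokine gene Cxcl16 (0.24). Havcr1 and Lcn2 were the only ones of the 7 with another of the 7 among their nearest 3. Such distances are smaller for genes that change less on this scale.

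RefSeq promoter windows (GRCm38.p6, 250 bases before to 50 after an annotated start, 300 in all) were matched for 4 of the 7 genes, with 8 windows: 3 for Havcr1, 1 for Lcn2, 2 for Spp1 and 2 for Gdf15. Since these genes rose together, the windows were searched on both strands for the letters of AP-1 (TGANTCA), STAT (TTCNNNGAA), the CACCC box that KLF factors can bind (CACCC) and the CCAAT box (CCAAT). Among all 32851 windows, 7.81% held the first, 8.30% the second, 57.5% the third and 37.4% the fourth. The STAT letters were in none of the 8 windows and the AP-1 letters in 1 of Havcr1. That window lies inside the gene, downstream of its first base at 46735080. The AP-1 letters there follow the annotated start and overlap an atg triplet, so they may be coding letters. The CACCC letters were in both windows of Gdf15 and in no window of the other 3 genes, and the CCAAT letters were in 1 window each of Spp1 and Gdf15. No matches overlapped, and the single Lcn2 window held none. In the Spp1 window with a match, the annotated start lies shortly before the GENCODE start of the gene at 104435118. The first bases after that annotated start were thus not found in a GENCODE transcript of the gene. In all other windows they were. Windows with a match follow for 3 genes, 5′ to 3′ on the strand of the gene, with the matched letters in capitals.
Gdf15 (chr8:70632407-70632706, minus strand; CACCC letters at 3 places): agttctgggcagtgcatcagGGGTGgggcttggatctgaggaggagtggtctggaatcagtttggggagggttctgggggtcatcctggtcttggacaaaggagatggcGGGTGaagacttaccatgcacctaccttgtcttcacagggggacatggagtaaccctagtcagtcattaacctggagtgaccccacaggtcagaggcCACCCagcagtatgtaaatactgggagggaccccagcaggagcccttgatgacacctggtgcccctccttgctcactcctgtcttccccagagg
Spp1 (chr5:104434861-104435160, plus strand; CCAAT letters on the other strand, 46 bases before the start): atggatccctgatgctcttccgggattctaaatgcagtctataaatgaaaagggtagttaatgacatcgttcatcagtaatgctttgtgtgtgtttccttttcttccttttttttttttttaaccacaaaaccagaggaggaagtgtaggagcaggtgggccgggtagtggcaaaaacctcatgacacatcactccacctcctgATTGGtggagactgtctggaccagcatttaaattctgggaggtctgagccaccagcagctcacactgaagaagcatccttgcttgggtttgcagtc
Havcr1 (chr11:46750918-46751217, plus strand, the third of its windows; AP-1 letters 11 bases after the start): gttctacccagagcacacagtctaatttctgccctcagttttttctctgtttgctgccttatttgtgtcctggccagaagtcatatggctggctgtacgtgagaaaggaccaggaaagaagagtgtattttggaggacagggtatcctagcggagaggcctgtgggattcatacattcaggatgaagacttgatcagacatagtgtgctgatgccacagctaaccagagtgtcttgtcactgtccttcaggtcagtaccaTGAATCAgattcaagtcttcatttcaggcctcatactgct
Such a match describes the letters of a window, not a bound site.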

How the data were processed

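Per the submitters' processing notes, the tools behind the deposited table were FastQC, STAR, featureCounts and edgeR, on the mm10 build; their versions and settings, the annotation and any use of strand were not given in the sources used here. The authors deposited RPKM values for 24062 rows and 6 libraries. In 27 rows a date replaces the symbol, and these were left out. Whole reads were recovered from the RPKM steps (100% of rows within 0.001 read), with 38936993 to 58272424 counted reads per library; a single read on 1 kb thus equals 0.0172 to 0.0257 RPKM.

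The 13912 genes whose mean reached 0.5 RPKM were fitted with limma 3.58.1 in R 4.3.3 on log2(RPKM + 0.5), with a mean-variance trend and no covariate, two-sided, with Benjamini-Hochberg adjustment over all tested genes at 0.05; the code was tested on simulated data. This scale understates the change of low genes. Under quantile normalization 849 genes were higher and 798 lower (51.6% of calls higher), and under TMM 1072 and 729 (59.5%), against 1389 and 484 (74.2%) as deposited; the median over tested genes was then -0.048, -0.015 and 0.097 (log2). Coordinates are from GENCODE vM21 (GRCm38, the assembly of mm10). The genes, lists and tests were chosen with earlier results of these data known. Genes named are the 7, Klf4, the 10 further injury genes with the smallest p, the tested binding partners, and the 3 nearest genes in pattern, with exceptions stated; some genes that this rule names are left out here. Replicate numbers were not treated as a pairing in the main fit. Alternatives were other pseudocounts, filters and scalings, no trend, a replicate block, leaving out each library and, chosen after seeing the data, voom.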

Additional observations from a re-analysis of the deposited data

How the results depend on the processing

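The log2 changes of the 7 genes kept their direction and stayed under an adjusted p of 0.05 in all 15 alternatives, the highest adjusted p being 0.0425 for Vcam1 without control replicate 1. The number of the 7 called higher was 7 in each. Of the further injury and repair genes, 16 to 22 were higher and 1 to 2 lower without 1 library, and 2 to 4 binding partners were higher. Over all tested genes 1389 were higher and 484 lower; the counts were 841 higher with a filter at 2 RPKM, 849 and 798 under quantile normalization, 729 lower under TMM scaling, 632 and 179 with the replicate block, and 474 to 1497 higher and 124 to 617 lower without 1 library, the lowest of each without knockout replicate 2; the cause was not tested. The labels number replicates 1 to 3 in both groups. Deviations of same-numbered libraries from their group means correlated at 0.17, -0.22 and -0.46, and not every library correlated best with its own number. The main fit therefore used no pairing. Deviations within a group of 3 depend on each other, so these correlations cannot exclude one. With the replicate block the 7 genes stayed called, with 19 further injury genes and 2 binding partners higher. edgeR and DESeq2 were planned on recovered reads and were not run. In their place voom, run on the same recovered reads, gave 7 of the 7 genes, 23 further injury genes and 2 binding partners higher. The depth limits Sox9, Krt20 and Ccl2 most, whose control levels rest on few reads.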
